A study of Caenorhabditis elegans with 2 samples.

Results

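The 10 genes described here encode chromodomain proteins of Caenorhabditis elegans: cec-1, cec-3, cec-4, cec-5, cec-6, cec-7, cec-8, hpl-1, hpl-2 and mrg-1. They were chosen by name, out of 19971 protein-coding genes on the 6 nuclear chromosomes, and all 10 were found in the gene table. The data are 1 list of 2767 peaks from chromatin immunoprecipitation and sequencing (ChIP-seq) with a rabbit polyclonal antibody to CEC-7, the product of cec-7 itself. Chromatin came from whole hermaphrodites of the fem-2(b245) strain, labelled as young adults that have a germline, kept at 20 degrees Celsius and, per the growth protocol, harvested when gravid. The only other library, of input DNA from the same strain, was not analysed here, and both libraries carry the mutation. Whole worms were used, so a peak cannot be placed in the germline or in the soma, and the 1 ChIP library, labelled replicate 2, gives no error between replicates. The label of the antibody names Y37D8A.11, which is the locus tag of cec-7 in the gene table. Whether the antibody also binds other chromodomain proteins was not tested.

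The chromodomain is a small fold that in many proteins holds a methylated lysine of a histone tail. Proteins that carry one are called readers, since they bring a function to chromatin that a methyltransferase has marked. In heterochromatin, proteins of the HP1 family read the lysine of histone H3 named H3K9 when it is methylated, whereas proteins of the MRG family read methylated H3K36, a mark of transcribed genes. In worms such readers are known for roles in anchoring chromatin at the nuclear periphery, in germline maintenance and in development. The question put to the data was whether CEC-7 peaks lay at the genes of CEC-7 and its relatives.

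CEC-7 peaks lay at 7 of the 10 genes: cec-3, cec-4, cec-5, cec-6, cec-7, hpl-2 and mrg-1. The genes cec-1, cec-8 and hpl-1 had none. A gene counted as having a peak where at least 1 bp of a peak fell on the gene or within 500 bp of either end, and all 7 also had a peak on the gene body. Among the other protein-coding genes of the same chromosomes, 21.3% had a peak on II (733 of 3445), 37.1% on III (979 of 2637), 16.0% on IV (525 of 3278) and 0.183% on X (5 of 2729). Over all 6 chromosomes the share was 17.5% (3494 of 19961). Counted on the gene body alone, the other genes of these chromosomes had a peak in 18.6% of cases on II, 32.2% on III, 13.6% on IV, and still 0.183% on X. By chromosome, 1 of 1 member had a peak on II, 3 of 5 on III, 3 of 3 on IV and 0 of 1 on X. The 7 genes stand against 2.55, the sum obtained when each member is given the share of its chromosome. Longer genes met peaks more often, so the genes of a chromosome were also divided by length into 3 equal classes, short, middle and long. On III, 37.9% of other genes of the middle class (that of cec-1, cec-7, cec-8 and hpl-2) and 44.4% of the long class (mrg-1) had a peak. On IV the shares were 8.33% in the short class (cec-4), 15.2% in the middle class (cec-5) and 24.5% in the long class (cec-6). The share was 18.3% in the middle class of II (cec-3) and 0% (0 of 909) in the short class of X (hpl-1). With these shares the sum was 2.62. The members are few, were chosen by name with earlier results of these data known, and partly share peaks, so these counts are a description and carry no test.

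The 7 genes had 8 distinct peaks between them, 5 touching the gene body and 3 lying in the flank alone. Positions of peaks are those of the deposited list, on WormBase WS220. Genes come from the RefSeq table of another build, WBcel235, and gene positions were taken to differ by about 100 bp at most, so distances from genes are given to 0.1 kb. The percent of a gene that a peak covered is given with positions as they stand, and for members also with the gene moved. The gene table has no strand or exons, so the ends of a gene are named low-coordinate and high-coordinate, and neither end is called its start. The score is the authors' own value for each peak, with no scale stated, and only ranks peaks within this list. Over all 2767 peaks its median was 127 (quartiles 76.6 and 246, range 50.02 to 1951.83), and the median width was 1987 bp (quartiles 1422 and 3124 bp).

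Of the genes for the protein that was precipitated and its neighbour, cec-7 lay wholly inside a peak. This peak, III 12874029 to 12877705, was 3677 bp wide with a score of 244.47, rank 698 of all peaks and 241 of the 763 on III. It covered 100% of cec-7, and did so with the gene moved 100 bp either way. On III, 17.1% of the other genes with a peak were covered completely. Its score was higher than the highest score of 52.9% of the 979 other genes of III that had a peak, whose median was 215. Measured against the 458 other peaks within 20% of its width it was lower than most, being above 40.4% of them. The gene of the precipitated protein thus had a score close to the median of its chromosome.

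The same peak reached mrg-1, which encodes the worm homologue of MRG15 and is needed for the development of the germline. The pair lie close together, with spcs-2, a gene for a signal peptidase subunit, between them. The peak covered 17.3% of mrg-1, at its high-coordinate end (14.6% and 20.1% with the gene moved 100 bp to the left or right), and 100% of spcs-2, which partly overlaps cec-7 in the gene table. Coverage of mrg-1 was above that of 22.1% of the other genes of III with a peak. The peak cannot be assigned to 1 of these 3 genes. On the other side of cec-7, the next peak began 1.0 kb away, outside the flank, at III 12878546 to 12881946 with a score of 52.89. The gene next to cec-7 on that side is enu-3.5. Next to mrg-1 on its far side is Y37D8A.8, 3.4 kb away and with no peak.

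The HP1 homologues differed. At hpl-2, which represses genes in the soma and germline, there were 2 peaks. The one on the gene, III 10753983 to 10758432, was 4450 bp wide with a score of 135.05. It covered 46.4% of hpl-2 at the high-coordinate end (43.4% to 49.4% with the gene moved), 100% of the next gene rnf-113 and 89.8% of K01G5.10. The other, III 10750244 to 10752070, ended 0.1 kb before the low-coordinate end and covered 100% of enu-3.6, with a score of 58.9. Both scores were low for the peaks' widths. The wide peak stood above 12.3% of 350 peaks of like width, whose median was 360, and the flanking one above 6.38% of 800, whose median was 109. Among genes of III with a peak, 29.4% had a lower highest score than hpl-2.

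At hpl-1, the other HP1 homologue, the nearest peak was 2.56 Mb away, a peak of 4848 bp at X 15806772 to 15811619 with a score of 130.65. It touched no protein-coding gene. Neither neighbour of hpl-1, K08H2.5 or K08H2.7, had a peak, and no peak midpoint lay within 50 kb of the gene. This is the usual state on X. Of the 2724 other genes of X without a peak, 21.5% were farther from their nearest one, and their median distance was 1404.1 kb. The contrast between hpl-2 and hpl-1 thus runs alongside the contrast between III and X, and with 1 gene on each chromosome the effect of gene and of chromosome cannot be told apart.

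**Figure D1:**
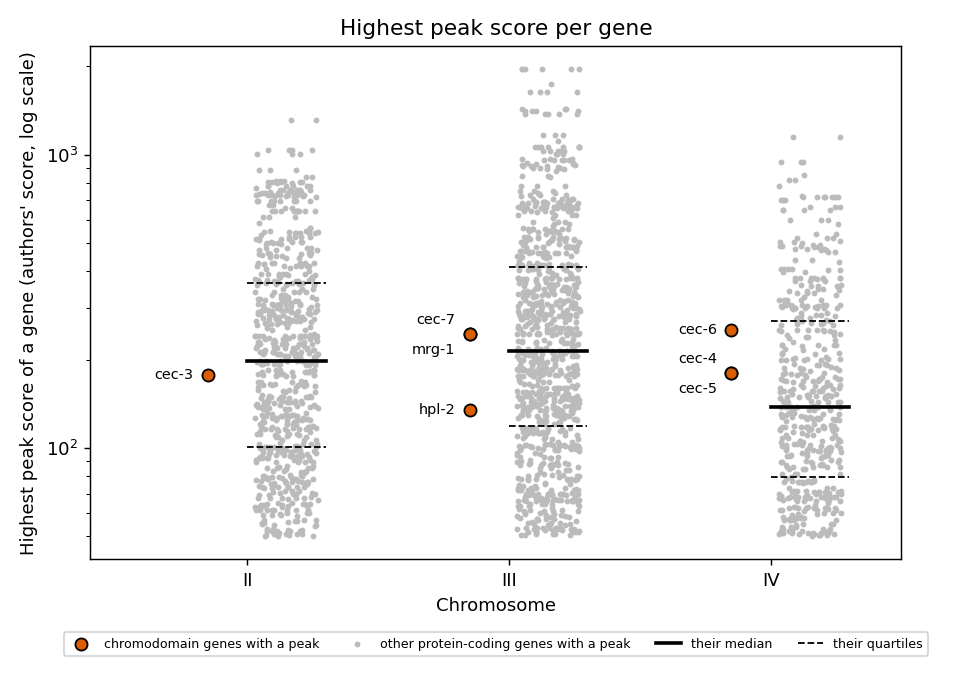
Highest peak score of each gene with a peak (authors' score, log scale) on chromosomes II, III and IV. Orange points are the 7 chromodomain genes, grey points the other protein-coding genes with a peak, and lines their median and quartiles. The 5 genes cec-4, cec-5, cec-6, cec-7 and mrg-1 lie above the median of their chromosome, and cec-3 and hpl-2 below it.

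Among genes known as readers of heterochromatin marks, cec-4 and cec-5 shared 1 peak on IV. The protein of cec-4 anchors chromatin methylated on H3K9 at the nuclear envelope. The peak, IV 7576329 to 7579501, was 3173 bp wide with a score of 180.0, rank 115 of the 434 on IV. It covered 87.1% of cec-4 (78.3% and 95.8% with the gene moved 100 bp to the left or right) and 62.0% of cec-5 (68.2% and 55.8%), bridging the 1.2 kb between them. In the gene table cec-4 lies inside F32E10.5, a gene of 4.0 kb of which the peak covered 51.0%, so this peak too belongs to no single gene. On IV, 63.2% of the 525 other genes with a peak had a lower highest score, the median being 137. For its width the peak was on the low side, above 31.0% of 529 peaks of like width. A second peak, IV 7580935 to 7583907 with a score of 108.45, lay 0.8 kb beyond cec-5, just outside the flank, on nol-10.

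The highest score at any of the 10 genes was that of cec-6, whose protein binds methylated H3K27. Its peak, IV 5545155 to 5548247, was 3093 bp wide with a score of 253.17, rank 672 of all peaks and 77 on IV. It began and ended inside the gene and touched no other protein-coding gene. It covered 85.9% of cec-6 whether or not the gene was moved, more than in 79.6% of the other genes of IV with a peak, where the median was 51.0%. By score it stood above 73.5% of those genes. A weaker peak, IV 5541929 to 5544522 with a score of 78.82, lay 0.3 kb from the gene, inside tebp-2, which encodes a telomere-binding protein. The neighbour on the opposite side, ari-2, was 2.7 kb away and had no peak.

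At cec-3, which encodes a reader of methylated H3K9, the peak on the gene was the weakest of the 5 that touched a gene body. This peak, II 7855784 to 7857145, was 1362 bp wide with a score of 72.09, rank 455 of the 567 on II. It covered 74.6% of cec-3 (76.0% and 69.0% with the gene moved 100 bp to the left or right). With positions as they stand it touched no other gene. The end of mdmh-35 lay less than 0.1 kb from it, which is within the uncertainty of gene positions. A stronger peak, II 7852920 to 7855311 with a score of 177.1, lay 0.5 kb from the gene, at the very edge of the flank. It covered 100% of mdt-10, a gene for a Mediator subunit, 93.3% of T09A5.5 and 30.3% of mdmh-35. With the genes moved 100 bp to the right, that second peak fell outside the flank and the highest score at cec-3 was 72.09. The gene on the other side, T09A5.15, had no peak. With the flanking peak counted, 45.7% of the 733 other genes of II with a peak had a lower highest score. The gene cec-3 lay in a dense stretch, with 8 peak midpoints within 50 kb against a median of 3 for other genes of II. So did cec-4 and cec-5, each with 6 against a median of 2 on IV. The number was 3 at cec-6. On III, where the median was 6, it was 7 at hpl-2, 5 at cec-7 and 4 at mrg-1. The shares of whole chromosomes do not take such local density into account.

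No peak lay at cec-1 or cec-8, although III is rich in peaks. The nearest peak to cec-1, which encodes a reader of methylated H3K27, was III 8429840 to 8431799, 1.3 kb beyond its high-coordinate end. It was 1960 bp wide with a score of 83.17, and it covered 76.6% of the neighbouring gene ZK1236.1 and 31.6% of ZK1236.5. Of the 1658 other genes of III without a peak, 91.6% lay farther from one. The neighbour on the low-coordinate side, sor-1, had no peak. For cec-8 the nearest was III 424501 to 426584, 2.8 kb away, with a width of 2084 bp and a score of 129.54. This peak touched no protein-coding gene, and 79.7% of the peakless genes of III lay farther from one. Within 50 kb there were 5 peak midpoints at cec-1 and 3 at cec-8, against a median of 6 for other genes of III. Neither neighbour of cec-8, stim-1 or affl-2, had a peak. Peaks below the caller's threshold are not in the list, so a gene without a peak is one where none was detected at this depth, which is unknown.

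As a set, the 8 peaks were middling by score, with a median width between the median and the upper quartile of all peaks. They are set here against all peaks, not against those at other genes. Their median score was 156 (range 58.9 to 253.17), and 5 of the 8 exceeded the median of all peaks. None belonged to the top 10% of the list by score. Their median width was 2844 bp (range 1362 to 4450 bp), and 6 of the 8 were wider than the median peak. Wider peaks scored higher in the list, with medians of 77.2 near the width of the narrowest of the 8 and 360 near that of the widest. Of the 8, the peak inside cec-6 and the one in the flank of cec-3 scored above the median of peaks within 20% of their own width. The 7 genes had a median highest score of 180, beside 176 for other protein-coding genes with a peak, all chromosomes pooled. By chromosome the median of the other genes was 197 on II, 215 on III and 137 on IV. The peaks covered a median of 74.6% of these 7 genes, against 56.9% of the others with a peak on all 6 chromosomes. Those others include genes with a peak in the flank alone. By chromosome their medians were 64.1% on II, 65.7% on III and 51.0% on IV. Coverage was below these at hpl-2 and mrg-1 and above them at the rest of the 7. Sharing was common in general. Of the other genes with a peak, 80.3% on III had one that also reached the window of another gene. The share was 80.6% on II and 71.2% on IV. By this measure, which counts flanks, each of the 7 genes also shared a peak with a neighbour, as cec-6 did with tebp-2.

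**Figure D2:**
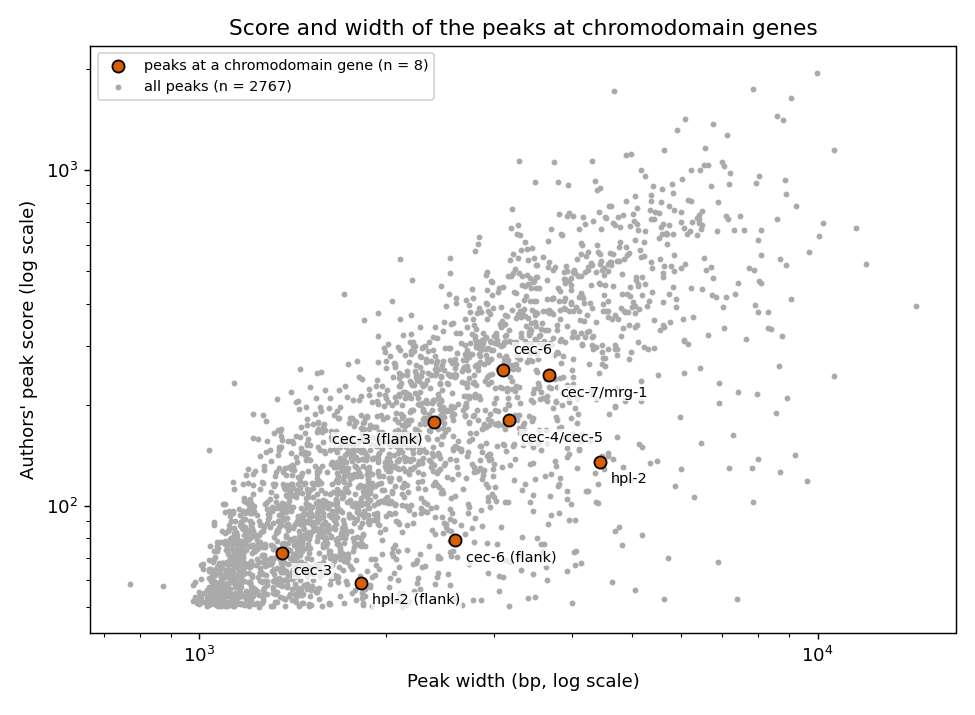
Authors' peak score against peak width in bp, both on log scales, for the 8 peaks at chromodomain genes (orange, labelled; flank marks a peak beside the gene) and all 2767 peaks (grey). The 8 lie between 58.9 and 253.17 in score, and both hpl-2 peaks and the cec-6 flank peak are low for their widths, above 12.3%, 6.38% and 7.86% of peaks of like width.

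Other genes of the same pathways were counted from 3 lists, which were also drawn up with earlier results of these data known. Of 10 other chromodomain genes, 9 were found in the gene table and 4 had a peak, where the shares of their chromosomes add up to 1.8 genes, and to 2.54 within length classes. The chromatin remodeller gene chd-1 had the highest score of these, 319.36, at I 7009134 to 7013947, followed by uad-2, whose protein binds piRNA gene clusters, with 294.0. No peak lay at cec-2, chd-3, chd-7, mys-1 or mys-2. Of these, chd-3 is on X, 2.95 Mb from a peak, while mys-2 and chd-7 were 7.1 and 8.8 kb from one, cec-2 16.7 kb and mys-1 95.3 kb. On I, 29.6% of other protein-coding genes had a peak, and on V 8.03%.

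Of 9 genes for H3K9 methylation, its readers and the nuclear RNAi factors that direct it, 8 had a peak, where the chromosome shares add up to 2.96 and those within length classes to 3.39. The gene lin-65, whose protein is a cofactor of the H3K9 methyltransferase MET-2, carried the peak with the third highest score of the whole list, 1726.36, at I 1755277 to 1759963. At met-2 the score was 662.44, but that peak covered 1.04% of the gene, a stretch shorter than the uncertainty of the gene positions, and it also touched R05D3.12. The one gene with no peak was set-32, 2.9 kb from the nearest. Of 6 genes for other histone methylation, 5 had a peak, against sums of 1.42 and 1.86. The list was drawn up for H3K36 and H3K27, but includes set-2, whose protein methylates H3K4. Its highest scores were 935.15 at set-2 and 714.04 at met-1, an H3K36 methyltransferase gene. The peak of 714.04 touched mus-81, C43E11.9 and cdc-6 and lay in the flank of met-1, and all peaks together covered 4.21% of met-1. The gene without a peak was mes-6, a Polycomb-group gene, 4.7 kb from the nearest. The median highest score was 180 for the 7 members with a peak, beside 261 for the other chromodomain genes with a peak, 234 for the H3K9 list and 173 for the last list. The 10 members had a median length of 2.0 kb and are shorter than the genes of these 3 lists, with medians of 6.2, 5.0 and 5.4 kb.

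**Figure D3:**
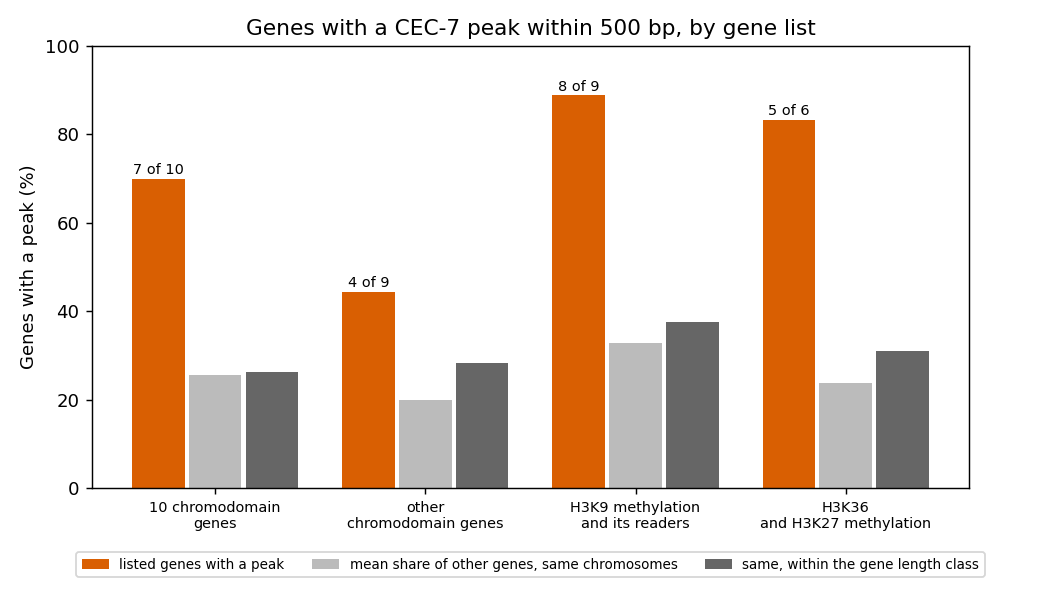
Percent of genes with a CEC-7 peak on the gene or within 500 bp, for the 10 chromodomain genes and 3 other lists (orange, with counts), beside the mean share of other protein-coding genes on the same chromosomes (light grey) and the same within the gene's length class (dark grey). The orange bar is the tallest of the 3 in every list, from 4 of 9 to 8 of 9 genes; no test was made.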

How the data were processed

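The deposited file holds the peaks of 1 CEC-7 ChIP library, with a start, an end and a score each. Per the file headers, positions are on WormBase WS220 and MACS called the peaks, and the score is the authors' own. BWA and ce10 are named in the submitters' processing notes. For MACS, version, settings and use of the input were not given in the sources used here, nor was sequencing depth.

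Protein-coding genes of RefSeq WBcel235 were set against the peaks as they stand. That the builds differ by about 100 bp at most was taken as given and not checked, and all genes were also moved 100 bp to either side. A gene had a peak if at least 1 bp fell on it or within 500 bp. Each chromosome's genes were divided into 3 equal classes by length. The 10 members and the other lists were chosen with earlier results of these data known. Named genes are all members, the genes next to them or in their peaks, and, of each other list, the 2 with the highest score and those without a peak. With 1 library no test was made. The overlap code was tested on simulated data. Tables were handled with pandas 2.3.3 and NumPy 2.4.6 under Python 3.11.15, intervals for the comparison of settings with SciPy 1.17.1, and figures with matplotlib 3.10.9.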

Additional observations from a re-analysis of the deposited data

How the results depend on the processing

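The same 7 members had a peak on the gene body alone, with flanks of 1000 bp, with all genes moved 100 bp to either side, with an overlap of at least 200 bp, and with the lower-scoring 50% of peaks left out. The excess over the chromosome shares, 4.45 genes, ran from 4.15 with flanks of 1000 bp to 5.24 among the higher-scoring peaks, and was 4.38 within classes of gene length. Merging peaks less than 1000 bp apart left the count at 7. Further settings were chosen after seeing the data. Counting members that share a peak once gave 5 of 8 loci, against a sum of 2.02. That sum gives each locus the share of single genes of its chromosome. Loci of more than 1 gene span more than a single gene, so the share is on the low side for them. Moves of up to 200 bp to either side kept all 7 members. The highest score at cec-3 was 72.09 with no flank or with genes moved 100 bp to the right, against 177.1. The higher-scoring peaks began at a score of 126.99, so the peak on the body of cec-3 was not among them. At that setting cec-3 was counted only through the flanking peak of 177.1, at the edge of its window. Its place in that count, and in the excess of 5.24, thus lies within the uncertainty of gene positions. Of the 24 genes of the other lists, 17 had a peak, against a sum of 6.17 from their chromosomes' shares, and 12 among the higher-scoring peaks, against 4.09. No paired analysis was possible because the peaks of 1 ChIP library, labelled replicate 2, were analysed here. The depth, which is unknown, limits what the absence of a peak at cec-1, cec-8 and hpl-1 shows.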
